A study of Homo sapiens with 35 samples.

Results

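The genes described here are 6 protein-coding genes, ADAMTS1, FGF18, ALOXE3, NRCAM, BCL11B and MSC, of the 62696 rows of an RNA-seq count table. They were chosen from measured values: higher in TWEAK-treated than in untreated control cells and lower in ETS1 KD cells, each by a factor of 1.5 or more and with a p, before adjustment, not over 0.05, and with an ETS1 ChIP-seq peak of both TWEAK replicates within 1000 bp of an annotated start site. Of the 16879 genes with enough counts to be tested, 3.28% met the first criterion, 4.51% the second and 97 genes (0.575%) both. Of the 1412 tested genes with such an ETS1 site, 7 (0.496%) met all criteria: these 6 and SLC7A5. The cells were U-87MG, an established human glioma line, kept as control cells or as CRISPR-Cas9 knockdown (KD) cells edited with guides to ETS1 or NFKB2, the gene of the p52 subunit of NF-κB. After 8 h of starvation, treated cells received 10 ng/ml TWEAK for 48 h, renewed after 24 h. The 12 RNA-seq libraries form 4 groups of 3: control untreated, control TWEAK, ETS1 KD TWEAK and NFKB2 KD TWEAK. The 20 ChIP-seq peak lists, 2 per group, cover ETS1 and p52 in control cells without and with TWEAK, p52 in TWEAK-treated ETS1 KD cells of guide 1 and of guide 2, and RNA Pol II in the same 4 conditions as the RNA-seq. No KD library without TWEAK and no ETS1 list of KD cells was among the files, so a KD effect on unstimulated levels and the loss of ETS1 from these sites were not analysed here.

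TWEAK is a cytokine of the TNF superfamily that acts through the receptor Fn14 and drives the non-canonical arm of NF-κB, in which the NFKB2 precursor is processed to p52. ETS1 is the founding member of the ETS family of transcription factors, which bind DNA through a winged helix-turn-helix domain that reads the core GGAA. In tumours ETS1 is known for its links to invasion and to genes of matrix-degrading enzymes. The 6 genes belong to no single pathway. ADAMTS1 is a secreted metalloproteinase that cleaves matrix proteoglycans, FGF18 is a secreted fibroblast growth factor, ALOXE3 is an epidermal lipoxygenase of the skin's lipid barrier, and NRCAM is an adhesion molecule of the L1 family known from axons. BCL11B and MSC (musculin) are transcription factors: BCL11B is a zinc finger protein needed for T cell identity, and MSC is a bHLH repressor known from myogenic and B cells.

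The ETS1 sites, each joined from the overlapping peaks of both TWEAK replicates, lay at different positions relative to the genes (build hg38, GENCODE 44). The ADAMTS1 site (chr21:26844580-26845368) had its summits 195 and 215 bp downstream of the main start site, in exon 1 and its 5′ UTR. The NRCAM site (chr7:108454705-108456344) had them 549 and 589 bp downstream, in intron 1. The FGF18 site (chr5:171418985-171419978) had them 340 and 363 bp upstream of the start. At ALOXE3 (chr17:8118995-8119293) the summits lay 660 and 678 bp upstream of the main start site, and at BCL11B (chr14:99272941-99273662) 840 and 1340 bp upstream. The BCL11B peaks of the 2 replicates shared only 25 bp, with summits 500 bp apart, and the peak of replicate 2 alone began 1263 bp from the start. The ALOXE3 summits of both replicates, 18 bp apart, fell inside a lysine tRNA gene of RefSeq, TRK-TTT3-5 (chr17:8119155-8119227). The sequences under or beside the summits show these differences. The ADAMTS1 stretch was placed on its cores and holds neither summit (positions 26845214 and 26845194).
FGF18, 50 bases either side of the summit of TWEAK replicate 2, gene strand (+), chr5:171419234-171419334, ETS core in capitals: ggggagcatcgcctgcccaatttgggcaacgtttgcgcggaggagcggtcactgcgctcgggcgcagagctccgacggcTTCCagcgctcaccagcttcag
NRCAM, 50 bases either side of the summit of TWEAK replicate 1, gene strand (−), chr7:108455837-108455937, ETS cores in capitals: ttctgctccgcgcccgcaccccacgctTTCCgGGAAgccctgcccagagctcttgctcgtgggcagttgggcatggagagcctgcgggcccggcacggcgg
ADAMTS1, 30 bases at the cores nearest the summits, gene strand (−), chr21:26845150-26845179, ETS cores in capitals: tttgcgctGGAAgaaaaacTTCCcgcgcgc
BCL11B, 50 bases either side of the summit of TWEAK replicate 1, gene strand (−), chr14:99272987-99273087, no core in this window: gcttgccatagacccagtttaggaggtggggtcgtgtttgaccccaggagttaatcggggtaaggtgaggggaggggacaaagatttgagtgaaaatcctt
ALOXE3, the tRNA gene under both summits in capitals with 30 bases on each side, + strand, chr17:8119125-8119257: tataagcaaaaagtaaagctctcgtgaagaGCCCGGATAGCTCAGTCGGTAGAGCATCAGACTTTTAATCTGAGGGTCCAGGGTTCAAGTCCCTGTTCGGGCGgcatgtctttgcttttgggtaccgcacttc

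At MSC the ETS1 site (chr8:71843451-71844253) had its summits 435 and 545 bp downstream of the start, in the coding part of exon 1. The printed NRCAM and ADAMTS1 stretches each held a pair of cores on opposite strands, in opposite arrangement: TTCC comes first at NRCAM and GGAA comes first at ADAMTS1. The NRCAM stretch was centred on a summit, whereas the ADAMTS1 stretch was chosen to hold its cores. FGF18 held 1 core in the printed window. In the wider window of 100 bases on each side of a summit, GGAA was counted on both strands. NRCAM had 3 cores, ADAMTS1, FGF18 and MSC had 2, ALOXE3 had 1, and BCL11B had 1 at the summit of replicate 1 and 0 at that of replicate 2. This core is common: it was in 82.6% of the 1981 ETS1 sites of both TWEAK replicates and in 88.3% of 34943 RefSeq promoter windows of the same length (GRCh38.p14). Each promoter window was the first 201 bases of a promoter sequence, whereas the ETS1 windows were centred on summits. The promoter shares given here are thus not rates at a start site. The longer CCGGAA, which contains the core, was found at NRCAM only among the 6, against 15.8% of ETS1 sites and 10.1% of promoters. AGGAAG, which also contains the core, was found at MSC only, against 17.4% and 23.1%. The AP-1 motif TGANTCA and the κB motif were in no member's window, against 2.07% and 4.39% of ETS1 sites. A match is a description of letters and does not mark a bound base.

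The strength of ETS1 peaks set FGF18 and NRCAM apart from ALOXE3. The FGF18 peak had a fold enrichment over input of 10.3 and 12.05 in the TWEAK replicates, and ranked 254 of 3570 and 171 of 3145 by −log10 q. NRCAM followed at 9.79 and 8.60 fold, ranks 308 and 438. ADAMTS1 reached 7.05 and 6.14 fold (ranks 709 and 1069) and MSC 5.31 and 8.27 fold (ranks 1705 and 493). The weakest were BCL11B, at 5.09 and 6.03 fold (ranks 2115 and 1366), and ALOXE3, at 4.28 and 4.34 fold (ranks 2372 and 2136). Only FGF18 and NRCAM were above the other 4 in both replicates.

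ETS1 was already at 4 of the 6 genes without TWEAK. FGF18, NRCAM, ADAMTS1 and MSC had a peak of both untreated replicates within 1000 bp of a start site, 66.7% of the members, against 58.5% of the 1412 tested genes with a TWEAK ETS1 site. Their untreated folds were 12.05 and 8.58 at FGF18, 11.3 and 5.35 at NRCAM, 4.97 and 3.999 at ADAMTS1, and 6.18 and 4.43 at MSC. Only at ADAMTS1 did both TWEAK replicates lie above both untreated ones, and at the other 3 genes the lists of the conditions overlapped. No test was run on these 2 lists per condition, and the untreated lists hold 4372 and 2066 peaks, so a rank in one is not a rank in the other. BCL11B had an untreated peak in replicate 1 only, 1028 bp from the start. ALOXE3 had none on its tRNA gene in either untreated list. Its nearest untreated ETS1 peak, in both replicates at 2394 bp, lay in the neighbouring HES7 gene.

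**Figure D1:**
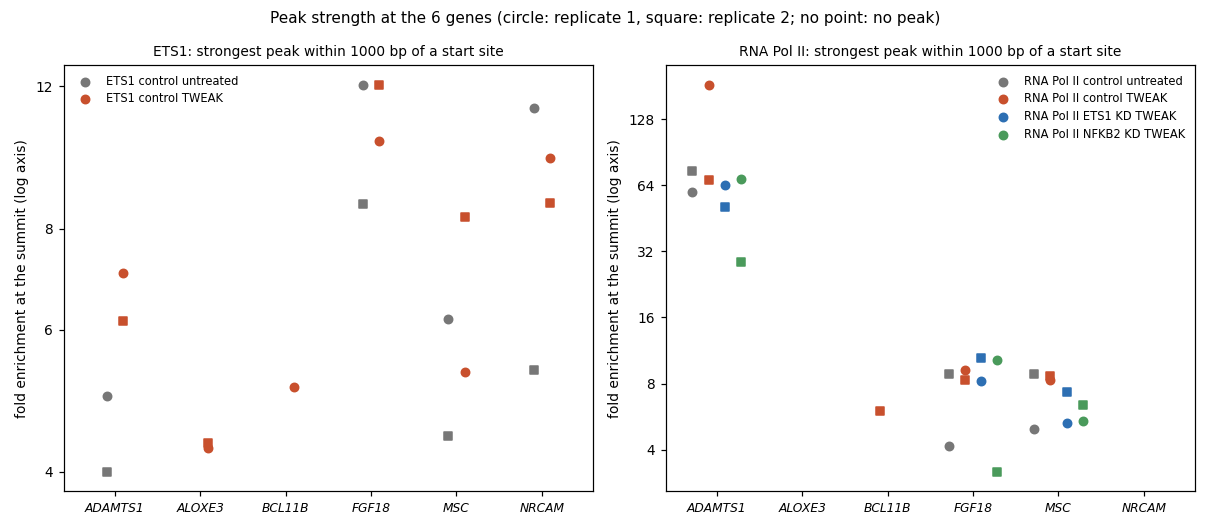
Fold enrichment of the strongest ETS1 peak (left) and RNA Pol II peak (right) within 1000 bp of a start site of each gene, on log axes. Colours mark the conditions, circles replicate 1 and squares replicate 2, and a missing point is a list without such a peak. ETS1 peaks of TWEAK-treated cells run from 4.28 at ALOXE3 to 12.05 at FGF18, and RNA Pol II at ADAMTS1 stands far above that at FGF18 and MSC.

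The tRNA cluster upstream of ALOXE3 carried further ETS1 peaks after TWEAK. TRL-TAG1-1 held a summit of replicate 1 (4.74 fold), and TRR-TCT2-1 held summits of both replicates (3.80 and 3.27 fold). No untreated ETS1 list had a peak on TRK-TTT3-5 or on these 2 tRNA genes. Further upstream, stronger peaks of both TWEAK replicates covered TRG-GCC2-6 (7.43 and 6.37 fold, ranks 657 and 995). Their summits lay just outside that tRNA gene, and no untreated ETS1 list had a peak on it. Across the genome, 14 of the 1981 ETS1 sites after TWEAK (0.707%) and 2 of the 1590 sites without TWEAK (0.126%) had their strongest summit inside one of 465 RefSeq tRNA genes, against 1 of 2941 p52 sites and 5 of 15042 RNA Pol II sites after TWEAK. tRNA genes are transcribed by RNA polymerase III and have near-identical copies, and how reads that match several copies were placed was not given in the sources used here. The part of multiple-copy sequence in the ALOXE3 peak was not tested. With peaks of at least 5 on the −log10 q scale, neither ALOXE3 nor BCL11B kept a shared ETS1 site within 1000 bp.

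The 12 RNA-seq libraries had between 28384201 and 40192606 counts. In control cells ETS1 mRNA was at 41.3 to 45.1 CPM (counts scaled to the size of the library) untreated and 71.9 to 87.6 with TWEAK, and at 28.2 to 37.8 in the ETS1 KD and 48.8 to 67.1 in the NFKB2 KD libraries. NFKB2 was at 235 to 346 CPM in control TWEAK, 209 to 273 in ETS1 KD and 75.7 to 105 in NFKB2 KD libraries, so each KD had its target lowered. CRISPR editing need not lower mRNA in proportion to protein, and protein was not measured in these files. Bulk RNA cannot tell fewer expressing cells from less RNA per cell. The cells expressed VIM, CD44 and NES, but the glial genes GFAP (2 to 13 counts per library), S100B (0 to 5) and SOX2 (0 to 2) were near the limit of detection. Markers of cell types in which some of these genes are best known differed by list. The 6 T cell markers summed to at most 0.154 CPM in any library, with CD3D at 0 in all. The 6 keratinocyte markers summed to 43.2 to 58.9 CPM, nearly all of it KRT10 (1311 to 2348 counts), with KRT5 and KRT1 at 0 in all. The 5 neuronal markers summed to 16.4 to 26.1 CPM, mostly SNAP25 (345 to 695 counts) and TUBB3 (111 to 251 counts), with RBFOX3 at 0 in all. The part of these in the results was not tested. Libraries differed in how counts followed GC content, from −0.331 to 0.591 (log2, genes of 60.4% GC minus genes of 38.5% GC), with control untreated replicate 3 at 0.512 and NFKB2 KD replicate 2 at 0.591 apart from the other 10.

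The levels of the 6 genes spanned a wide range. Per length, in RPKM (CPM per kilobase of exon), control TWEAK means were 35.5 for ADAMTS1 and 20.6 for MSC, but 1.94 for FGF18, 0.999 for ALOXE3, 0.874 for NRCAM and 0.245 for BCL11B. Differences below are on the log2 scale with their SE from an edgeR fit over all 12 libraries. Because the control untreated, control TWEAK and ETS1 KD libraries chose the genes, their differences are given as descriptions, with no test.

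ADAMTS1, the matrix protease, was at 146, 149 and 182 CPM untreated and 243, 249 and 285 CPM with TWEAK. In ETS1 KD it was at 145, 177 and 174 CPM, and in NFKB2 KD at 204, 130 and 226 CPM. TWEAK-treated controls lay above every other library, and the ETS1 KD and untreated libraries overlapped. NFKB2 KD replicate 2, the library with the steepest GC trend, was the lowest of all 12. Control untreated replicate 3, with the next steepest trend, was the highest untreated library. The part of GC content in these values was not tested. The difference was 0.71 ± 0.18 for TWEAK against untreated and −0.65 ± 0.18 for ETS1 KD against control. ADAMTS1 is close to the fold limit of the rule, at 1.63 up and 1.57 down, and missed it without control TWEAK replicate 3 or without ETS1 KD replicate 1.

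FGF18, the growth factor, was at 2.47, 2.06 and 2.34 CPM untreated (67 to 75 counts) and 3.77, 3.98 and 3.86 CPM with TWEAK. ETS1 KD libraries held 1.76, 2.08 and 1.37 CPM, and NFKB2 KD libraries 1.88, 2.58 and 2.55 CPM. The 3 TWEAK controls were tight and above all others, and ETS1 KD was the lowest group, overlapping the untreated one. The difference was 0.76 ± 0.19 with TWEAK and −1.15 ± 0.19 in ETS1 KD. The NFKB2 KD mean of 2.34 CPM was close to the untreated mean of 2.29 CPM.

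ALOXE3, the lipoxygenase, was at 1.46, 0.984 and 1.38 CPM untreated (32 to 44 counts) and 3.66, 3.29 and 4.33 CPM with TWEAK. It was at 1.35, 2.27 and 1.63 CPM in ETS1 KD and 2.23, 1.96 and 3.01 CPM in NFKB2 KD. TWEAK controls were above all other libraries, and ETS1 KD overlapped the untreated libraries. The NFKB2 KD libraries lay above every untreated library and overlapped the ETS1 KD ones, with a mean between those of ETS1 KD and control TWEAK. Its difference with TWEAK, 1.56 ± 0.25, was the largest of the 6, and ETS1 KD differed from control by −1.10 ± 0.24.

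NRCAM, the adhesion molecule, was at 2.85, 3.17 and 3.09 CPM untreated and 4.92, 6.45 and 9.55 CPM with TWEAK, with a coefficient of variation of 33.9%, next to the widest of any group of the 6 genes. ETS1 KD libraries were at 3.75, 5.43 and 4.43 CPM and NFKB2 KD libraries at 4.46, 4.03 and 4.32 CPM. All KD libraries lay above all untreated ones, and the highest ETS1 KD library lay above the lowest TWEAK control, so those groups overlapped. The difference was 1.20 ± 0.22 with TWEAK and −0.62 ± 0.22 in ETS1 KD. Both rest in part on control TWEAK replicate 3: without it they were 0.90 and −0.33, and NRCAM no longer met the rule, as also without ETS1 KD replicate 1 or with a correction for GC content.

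BCL11B, the zinc finger factor, was at 0.904, 0.676 and 0.969 CPM untreated (22 to 31 counts) and 2.01, 2.22 and 2.05 CPM with TWEAK. In ETS1 KD it was at 0.968, 0.766 and 0.858 CPM (25 to 33 counts), inside the untreated range. In NFKB2 KD it was at 1.42, 2.45 and 2.98 CPM (49, 90 and 98 counts), above every untreated and every ETS1 KD library and on both sides of the TWEAK controls. The difference was 1.30 ± 0.27 with TWEAK and −1.27 ± 0.27 in ETS1 KD. A lncRNA on the other strand (ENSG00000235785) overlaps BCL11B by 1788 bp and had 0 counts in every library.

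MSC, the bHLH repressor, was at 20.4, 23.5 and 28.2 CPM untreated and 38.5, 40.5 and 47.4 CPM with TWEAK. It was at 18.4, 23.9 and 22.6 CPM in ETS1 KD and 26.6, 24.9 and 33.7 CPM in NFKB2 KD. TWEAK controls lay above all other libraries, ETS1 KD overlapped the untreated group, and every NFKB2 KD library lay above every ETS1 KD library. The difference was 0.81 ± 0.16 with TWEAK and −0.96 ± 0.16 in ETS1 KD. All 2853 bp of MSC overlap the antisense MSC-AS1, and the strand setting of the counting was not given in the sources used here. MSC-AS1 differed by −0.08 ± 0.15 with TWEAK and −0.35 ± 0.15 in ETS1 KD (adjusted p = 0.88 and 0.351 over all genes tested).

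**Figure D2:**
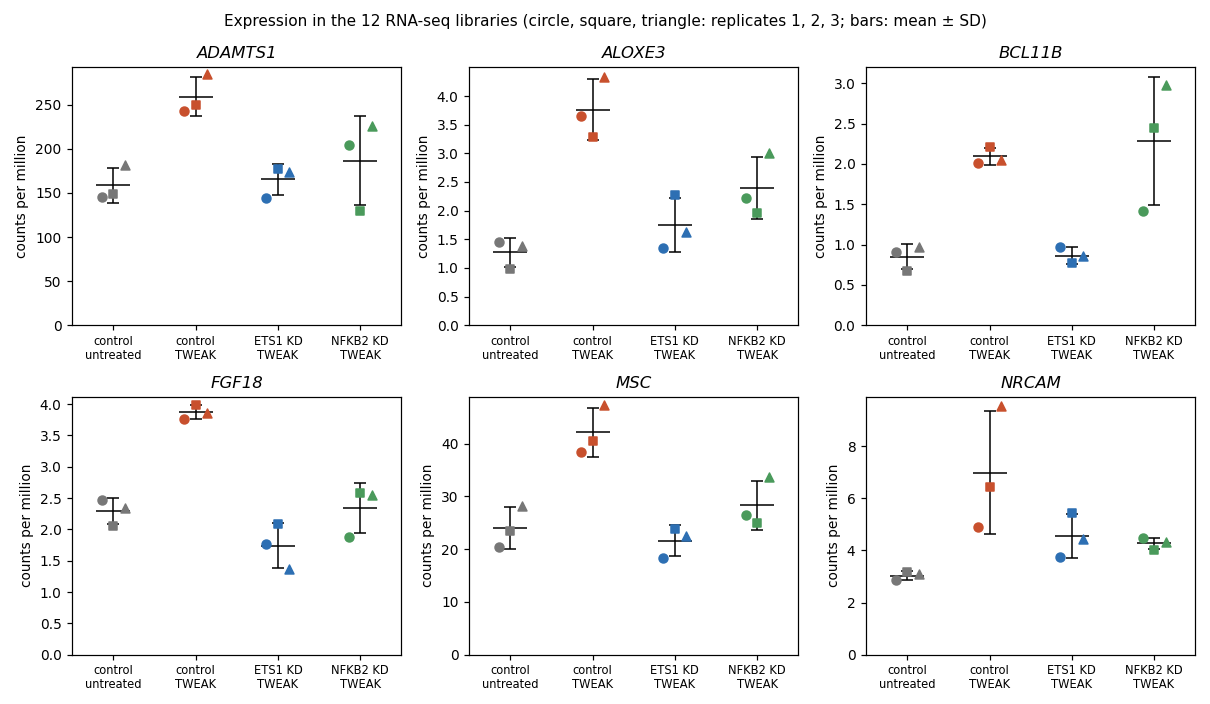
CPM of the 6 genes in the 12 RNA-seq libraries, each panel with its own axis from 0. Symbols are replicates and bars the mean ± SD of 3 libraries. Control TWEAK stands above untreated and ETS1 KD for all 6 but for the overlap of 1 NRCAM library, and BCL11B in NFKB2 KD (2.28 CPM on average) is not below control TWEAK (2.09 CPM).

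Every member was higher in all TWEAK controls than in all untreated ones, a separation seen upward in 11% of genes tested. Members in ETS1 KD were below all TWEAK controls for 5 of 6, against 10.8% of genes tested. Since the rule chose these differences, nothing is read from the counts. As a share of the rise with TWEAK, the ETS1 KD mean was lower by 61.9% of the rise at NRCAM, 80.8% at ALOXE3, 93.5% at ADAMTS1, 98.8% at BCL11B, 113% at MSC and 135% at FGF18, where a value over 100 is a mean below the untreated one. ETS1 KD libraries were all above the untreated ones for NRCAM only (16.9% of genes tested), and the groups of the other 5 overlapped.

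NFKB2 KD was not used to choose the genes, but its reference groups were. Against control TWEAK, the differences were −0.73 ± 0.19 for FGF18, −0.71 ± 0.22 for NRCAM, −0.65 ± 0.24 for ALOXE3, −0.57 ± 0.16 for MSC and −0.47 ± 0.18 for ADAMTS1, and 0.12 ± 0.25 for BCL11B. None passed the threshold in edgeR's quasi-likelihood test (adjusted p between 0.686 and 1, and 0.0237% of genes tested were called lower), although 5 of 6 had all NFKB2 KD libraries below all TWEAK controls, against 3.82% of genes tested. Choosing genes high in the TWEAK controls favours such a separation. The other 91 genes that met both expression criteria had a median of −0.57, with 86 of 91 lower, beside −0.61 for the 6 members. The median over all genes tested was −0.02. A single library moved the values of NRCAM and ADAMTS1: without control TWEAK replicate 3 NRCAM was at −0.40, and without NFKB2 KD replicate 2 ADAMTS1 was at −0.27. As a share of the rise with TWEAK, computed from the same means, the NFKB2 KD mean was lower by 54.7% at ALOXE3, 68.7% at NRCAM, 72.2% at ADAMTS1, 76.1% at MSC and 96.9% at FGF18.

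BCL11B was the only one of the 6 with an NFKB2 KD mean above control TWEAK (a share of −15.2%). That sign rests on 1 library: without NFKB2 KD replicate 3 the difference from control TWEAK was −0.086, and with it 0.12 was smaller than its SE. NFKB2 KD exceeded untreated by 1.42 ± 0.27 and ETS1 KD was below NFKB2 KD by −1.40 ± 0.27, with no overlap of libraries in either. For the other 5 the difference of ETS1 KD from NFKB2 KD ran from −0.45 ± 0.25 (ALOXE3; −0.71 to −0.29 leaving out each library) to 0.09 ± 0.22 (NRCAM; −0.08 without ETS1 KD replicate 2), and MSC was the only one of them without overlap, at −0.39 ± 0.16. NFKB2 KD libraries lay above all untreated ones for ALOXE3, BCL11B and NRCAM, 3 of 6 against 5.32% of genes tested, and ETS1 KD libraries below all NFKB2 KD ones for BCL11B and MSC, 2 of 6 against 9.22%. No test is given for these differences, since the untreated and ETS1 KD libraries were those in which the genes were chosen low. The NFKB2 KD libraries of BCL11B varied more than any other group of the 6 genes, with a coefficient of variation of 34.8%.

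**Figure D3:**
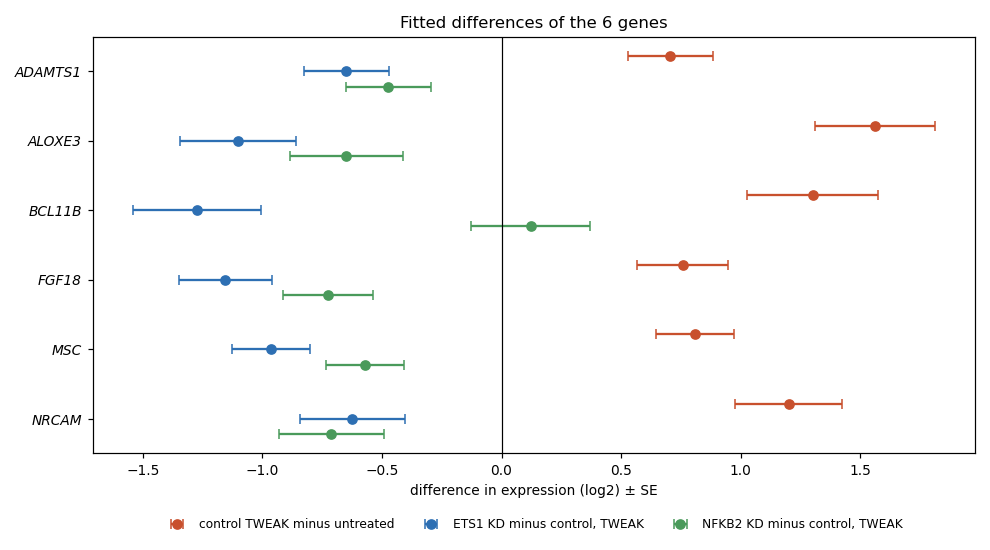
Fitted log2 differences of the 6 genes (points) with SE (bars) for TWEAK against untreated, ETS1 KD against control and NFKB2 KD against control. BCL11B is the only gene of the 6 with its NFKB2 KD point (0.12) above 0, by less than its SE and not without NFKB2 KD replicate 3 (−0.086), and its ETS1 KD point is at −1.27.

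RNA Pol II peaks, which the rule did not use, lay near the start of some members only. ADAMTS1, FGF18 and MSC had a peak of both TWEAK replicates within 1000 bp of a start site, 50% of the members, against 65.9% of the 1412 tested genes with an ETS1 site and 58.1% of all genes tested. The same 3 genes had one in both lists of each of the other 3 conditions. Shares of the 1412 genes there were 51.2% untreated, 58.7% in ETS1 KD and 52.8% in NFKB2 KD. Over all genes tested they were 46.7%, 49.6% and 43.9%, so the members' 50% was near the share of tested genes. They are also the 3 members with the highest mean RPKM in control TWEAK, and the part of expression level was not tested. ADAMTS1 had one of the strongest peaks anywhere: its summits lay 35 to 66 bp downstream of the main start, and its rank was between 91 and 162 in lists of 11175 to 44672 peaks. Folds there were 60.0 and 74.2 untreated, 184 and 67.9 with TWEAK, 64.2 and 50.8 in ETS1 KD, and 68.8 and 28.7 in NFKB2 KD. Control TWEAK replicate 1 was the highest and NFKB2 KD replicate 2, the list with the fewest peaks, the lowest, and the conditions otherwise overlapped.

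At MSC the folds were 4.97 and 8.81 untreated, 8.34 and 8.64 with TWEAK, 5.31 and 7.32 in ETS1 KD, and 5.39 and 6.37 in NFKB2 KD. Both TWEAK lists were above both lists of each KD, by less than the gap between the untreated replicates. At FGF18 the folds were 4.16 and 8.82 untreated, 9.26 and 8.32 with TWEAK, 8.24 and 10.5 in ETS1 KD, and 10.3 and 3.16 in NFKB2 KD, so the conditions overlapped. Here RNA Pol II did not form a narrow peak at the start: several broad peaks lay within 5000 bp upstream, and in control TWEAK replicate 1 a single peak ran from position 171408974 to 171420354. BCL11B had a peak at its start in control TWEAK replicate 2 only, at 6.02 fold with the summit 1 bp upstream. NRCAM had none near its main start in any list. The nearest in 7 of the 8 lists lay in the gene body, 210074 to 210553 bp downstream of it and at least 2562 bp from an alternative start.

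ALOXE3 had no RNA Pol II peak within 1000 bp in any list. The nearest, 1699 to 1811 bp from a start in 7 lists, covered TRR-TCT2-1 and the end of HES7. A peak at the GENCODE start of HES7, 4775 to 4918 bp from an ALOXE3 start, was present in 7 lists, at 6.13 fold in the 1 untreated list that had it, 19.6 and 11.9 with TWEAK, 5.55 and 6.44 in ETS1 KD, and 9.51 and 6.65 in NFKB2 KD. Both TWEAK lists were above the other 5. HES7, a bHLH repressor of the Notch pathway, fell just outside the rule: its expression met both criteria, at 0.98 up and −1.01 down (log2), but its nearest shared ETS1 site was 1409 bp from a start. The next genes outside were LINC01500 at 7981 bp and MUC12 at 12484 bp, and just inside stood BCL11B at 744 bp and SLC7A5, the amino acid transporter, at 138 bp with folds of 1.65 up and 1.51 down.

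p52 was not found at the start of these genes by both replicates. With TWEAK, 0 of 6 members had a p52 site of both replicates within 1000 bp, against 6.37% of the 1412 tested genes with an ETS1 site and 4.94% of all tested. Replicate 2, with 11761 peaks against 3579 in replicate 1, had weak single peaks at ADAMTS1 (3.97 fold, rank 10980) and ALOXE3 (5.50 fold, rank 7461, 554 bp from a start). Neither untreated list and none of the 4 lists of ETS1 KD cells had a p52 peak within 1000 bp of any member. Of the 1412 genes, 0.283% had a p52 site of both replicates untreated, 2.12% with guide 1 and 5.38% with guide 2. Over all genes tested the shares were 0.0237%, 2.03% and 4.99%. With shares this low, including those with TWEAK, 0 of 6 is not read as a trait of these genes. NRCAM had a p52 site of both TWEAK replicates inside the gene, at chr7:108211502-108212409, 1899 bp from an alternative start and 244233 bp downstream of the main one. Its folds were 7.25 and 17.4 with TWEAK, and 7.46 in guide 1 replicate 2, 10.5 in guide 2 replicate 1 and 10.1 in guide 2 replicate 2 of ETS1 KD cells. It was absent from both untreated lists and from guide 1 replicate 1, the ETS1 KD list with the fewest peaks (1387). Only 1 other p52 site of both replicates lay within 50000 bp of a member's start, 43916 bp from ALOXE3 (7.44 and 11.9 fold).

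**Figure D4:**
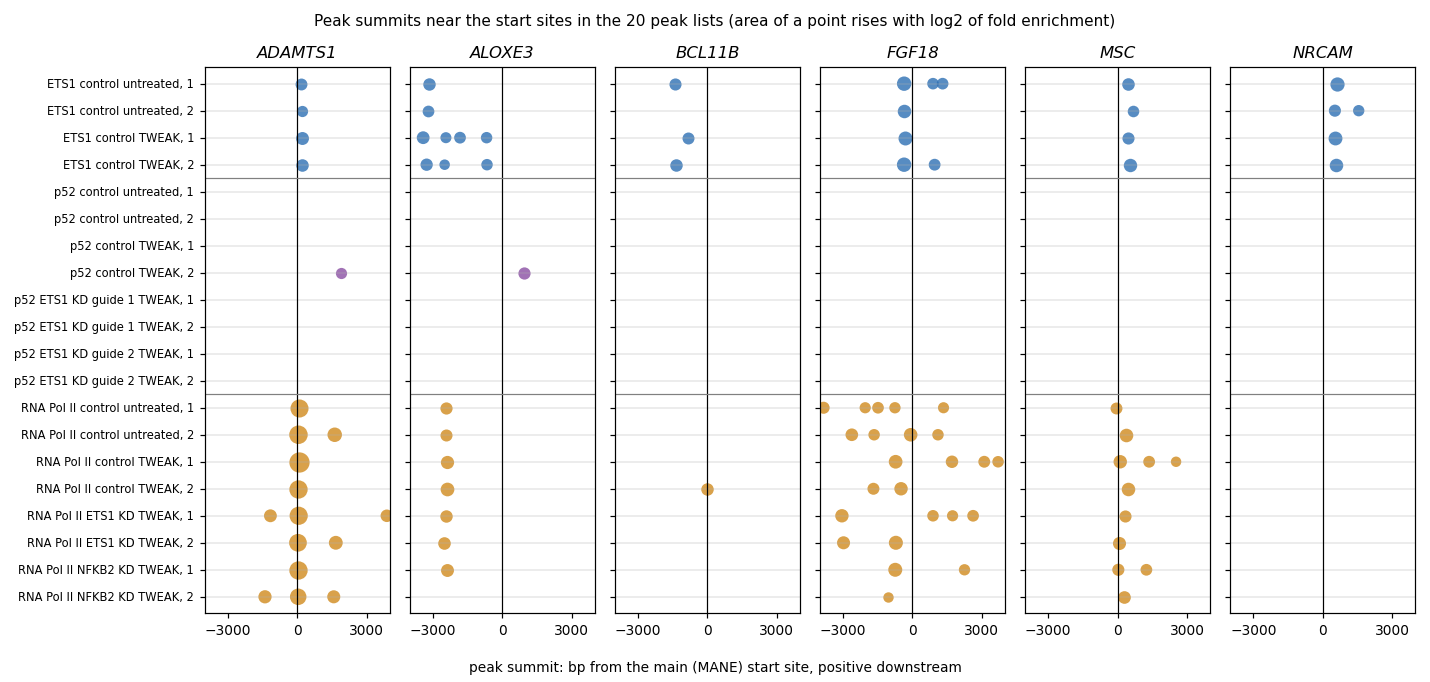
Summits of all peaks between 4000 bp upstream and 4000 bp downstream of the main start site of each gene, one row per peak list, with point area rising with log2 of the fold enrichment. ETS1 summits are downstream of the start at ADAMTS1, MSC and NRCAM, upstream at ALOXE3 and BCL11B, and on both sides at FGF18, where the site of both TWEAK replicates is upstream. RNA Pol II summits gather at the start of ADAMTS1 and MSC, and p52 has 2 single points.

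Relatives and partners of the 6 genes mostly did not pass the test, by edgeR's quasi-likelihood test adjusted over all genes tested, which called 3.05% with TWEAK and 1.36% in ETS1 KD. Of 11 other ADAMTS proteases tested, 0 rose and 1 fell with TWEAK (ADAMTS14, −1.92, adjusted p = 0.0447), and 1 fell in ETS1 KD. That was ADAMTS5, an aggrecanase and the neighbour in family of ADAMTS1, at −1.73 (adjusted p = 0.013; 169 CPM in control TWEAK and 51.0 CPM in ETS1 KD). An ETS1 site of both TWEAK replicates overlapped an annotated start of ADAMTS5. With TWEAK ADAMTS5 differed by 0.25 (adjusted p = 0.804). Of 7 other FGF ligands tested, FGF13, an intracellular member that acts on sodium channels, fell with TWEAK (−0.93, adjusted p = 0.00361) and again in ETS1 KD (−0.94, adjusted p = 0.0056), and the other 6 did not pass. Neither of the 2 FGF receptors tested passed.

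Of 10 bHLH relatives of MSC, ID3, an inhibitor that binds E proteins, rose with TWEAK (0.79, adjusted p = 0.0108), and ID1, of the same kind, rose in ETS1 KD (0.80, adjusted p = 0.0205). None of 11 partners of BCL11B in the NuRD and BAF complexes passed in either comparison, nor did any of 6 tested relatives and partners of NRCAM. No lipoxygenase other than ALOXE3 had enough counts to be tested, with at most 7 counts in a library. Medians of these lists with TWEAK were between −0.11 and 0.24, beside 0.02 for all genes tested.

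Of 11 other genes listed as known ETS1 targets and tested, MMP1 and MMP9 rose and ANGPT2 fell with TWEAK, and MMP1 fell in ETS1 KD. The collagenase MMP1 differed by 1.48 with TWEAK (adjusted p = 0.000733) and −1.23 in ETS1 KD (adjusted p = 0.00384). MMP9, a gelatinase, had 0 counts in untreated libraries and a mean of 1.73 CPM with TWEAK (adjusted p = 0.00339). In ETS1 KD it differed by 0.24 (adjusted p = 0.95). ANGPT2, a vascular ligand at 0.669 CPM untreated, differed by −2.17 with TWEAK (adjusted p = 0.00792). In NFKB2 KD no gene of any of these lists passed.

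Of the neighbours within 100 kb of a member's ETS1 site, HES7 and AURKB passed the test with TWEAK and none passed it in ETS1 KD. HES7, 4791 bp from the ALOXE3 site, rose by 0.98 ± 0.24 with TWEAK (adjusted p = 0.0463) and differed by −1.01 ± 0.24 in ETS1 KD (adjusted p = 0.0622), the same signs as ALOXE3. PER1, a clock gene 22898 bp from that site, differed by 0.65 ± 0.31 with TWEAK (adjusted p = 0.378) and −0.32 ± 0.31 in ETS1 KD (adjusted p = 0.818). AURKB, a mitotic kinase 87405 bp away, rose by 0.51 ± 0.12 with TWEAK (adjusted p = 0.0408) and differed by 0.44 ± 0.12 in ETS1 KD (adjusted p = 0.115), the opposite sign to ALOXE3. The other tested neighbours of ALOXE3, VAMP2, TMEM107 and BORCS6, differed by −0.00095 ± 0.32, −0.19 ± 0.15 and 0.01 ± 0.15 with TWEAK. In ETS1 KD these differed by −0.30 ± 0.32, −0.22 ± 0.15 and −0.07 ± 0.15. NPM1 beside FGF18 and PNPLA8 beside NRCAM differed by 0.17 ± 0.19 and −0.14 ± 0.26 with TWEAK. ADAMTS1, BCL11B and MSC had no other protein-coding gene start within that distance.

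Across the 12 libraries, log2 CPM of the members went together to different degrees, with Pearson's r from 0.49 (BCL11B and NRCAM) to 0.91 (ADAMTS1 and MSC). These points share libraries and groups, and the rule favours such likeness. The genes most like each member by the same measure were TBRG1 (r = 0.96) and KDM7A (0.93) for ADAMTS1, CXCL2 (0.93) and MTHFD1L (0.93) for ALOXE3, SLCO2B1 (0.95) and PLA2G4C (0.95) for BCL11B, DUSP10 (0.89) and GAS5 (0.88) for FGF18, DUSP10 (0.96) and MOCOS (0.94) for MSC, and RNF19B (0.92) and TRAF1 (0.90) for NRCAM. DUSP10, a phosphatase of stress-activated kinases, was on the list of both FGF18 and MSC. Only MTHFD1L, a mitochondrial folate enzyme, had an ETS1 site of both TWEAK replicates within 1000 bp of a start.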

How the data were processed

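Per the labels and the methods of the study, reads were trimmed with Trimmomatic. RNA-seq reads were aligned to hg38 with STAR and counted per gene with featureCounts, and the authors deposited raw counts. ChIP-seq reads were aligned with Bowtie2, MACS2 called peaks against input, and bedtools removed those in blacklisted regions. The input samples were of TWEAK-treated control cells and of TWEAK-treated ETS1 KD cells of each guide. None was of untreated or NFKB2 KD cells, so the lists of those conditions had no input of their own condition among the samples. Each deposited list holds 1 replicate. The deposited peak lists give a fold enrichment (a ratio over input), a −log10 p-value and a −log10 q-value for each peak. Tool versions, the gene annotation of the counts and the strand setting were not given in the sources used here. The labels name a library kit for DNA, and the methods a directional RNA kit.

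Of 62696 rows in the count table, 16879 genes passed edgeR's filterByExpr. All 12 libraries entered 1 quasi-likelihood model of the 4 groups (edgeR 4.0.16, R 4.3.3) with TMM normalisation, no covariate and Benjamini-Hochberg adjustment at 0.05. CPM values are counts scaled to the normalised library size, and log2 CPM adds a prior count of 2. RPKM divides CPM by the exon length of GENCODE 44, to which 62625 of 62649 distinct identifiers matched. Peaks of 2 replicates that overlapped by at least 1 bp were joined to a site, and distances run from the nearest edge to any annotated start (Python 3.11.15, pandas 2.3.3, pysam 0.24.0). The first 201 bases of each RefSeq promoter sequence (GRCh38.p14) gave the motif background. Scripts were tested on simulated data.

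The methods of the study call the 3 RNA-seq replicates biological. Nothing in the labels says that replicates came from separate cultures, so p-values measure the spread between these samples. Replicates of every group differed beyond sampling noise. The depth behind low genes was small, 22 to 98 counts for BCL11B. Replicate numbers are shared by all groups, but only 9 of 18 pairs of same-numbered libraries had correlated deviations over 0.1, so no block was used. The genes and lists were chosen with earlier results of these data known. Genes named were the 6 members, the 2 genes most like each, listed relatives past the threshold (at most 3 a list), marker genes, neighbours, and genes at the limits of the rule. Alternatives were DESeq2 1.42.0, RLE size factors, no filter, a replicate block, GC offsets, other distances and peak limits, and leaving out each replicate.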

Additional observations from a re-analysis of the deposited data

Results flagged for a closer look

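BCL11B was flagged because ETS1 KD was below NFKB2 KD, both with TWEAK, with an adjusted p under 0.05 in edgeR's quasi-likelihood test. The difference was −1.40 ± 0.27 (log2), and all 3 ETS1 KD libraries lay below all 3 NFKB2 KD libraries. The ETS1 KD libraries were among those that chose the gene as low, so neither the difference nor the flag is independent of the choice. The flag is therefore a description and no test of BCL11B. Leaving out each library in turn gave −1.68 to −1.20.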

How the results depend on the processing

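The 6 genes gave 432 values under an alternative, and 12 of them changed sign. A threshold was compared for 216 values, those of the comparisons with NFKB2 KD: 198 kept their direction and side, 7 changed sign, 10 fell below the threshold and 1 passed it. The other group in each of these comparisons was one in which the genes were chosen. These counts therefore describe how processing moved the values and do not back any difference. The other 216 had no test: 2 moved beyond the replicate spread and 5 changed sign within it, all in ETS1 KD against untreated. There ADAMTS1 (0.06) was −0.014 without control untreated replicate 1 and −0.0018 without ETS1 KD replicate 2, and BCL11B (0.03) was −0.125 without control untreated replicate 2, −0.074 without ETS1 KD replicate 1 and −0.00066 with no filter. The cause was not tested. Of the other sign changes, FGF18 in NFKB2 KD against untreated was −0.031 with the GC correction, −0.026 with the replicate block and the GC correction together, −0.02 without control untreated replicate 2, −0.047 without NFKB2 KD replicate 2 and −0.0086 without NFKB2 KD replicate 3, with 0.193 as the highest value leaving out a replicate. BCL11B in NFKB2 KD against control was −0.086 without NFKB2 KD replicate 3 and 0.396 without NFKB2 KD replicate 1, and NRCAM in ETS1 KD against NFKB2 KD was −0.082 without ETS1 KD replicate 2 and 0.178 without ETS1 KD replicate 1.

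Counts of genes called depended more on the tool, the filter and the GC correction. With TWEAK 515 genes were called, 940 by DESeq2, 859 with no filter, 865 with the GC correction, 1403 with that and the replicate block, and 173 to 419 leaving out each replicate. In ETS1 KD against control the counts were 230, 534, 469, 387, 703 and 101 to 147, with 42 higher and 188 lower as reported, 123 and 264 with the GC correction and 315 and 388 with the block as well. In NFKB2 KD against control they were 5, by DESeq2 36, with no filter 87, with the block and GC correction 26, and leaving out replicates 2 to 4, beside 659 genes at an unadjusted p under 0.05. In NFKB2 KD against untreated they were 101, 308, 278, 199, 361 and 37 to 254, the highest without NFKB2 KD replicate 2, with 69 higher and 32 lower as reported and 115 and 84 with the GC correction. In ETS1 KD against untreated 2317 were called, 4265 with the block and GC correction and 1165 to 2104 leaving out replicates. In ETS1 KD against NFKB2 KD the counts were 327, 808, 781, 734, 1323 and 77 to 562, with 91 higher and 236 lower as reported and 308 and 426 with the GC correction.

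The replicate block alone gave 649, 247, 4, 120, 2778 and 372 genes in these 6 comparisons. Same-numbered libraries correlated between −0.304 and 0.492, and 7 of 12 correlated best with their own number. The rule gave 7 genes, but 3 with an adjusted p under 0.05 (ALOXE3, BCL11B and MSC) and 4 to 9 leaving out each replicate, 4 without control TWEAK replicate 3. Under the replicate block SLC7A5 was lost. Members with a p52 peak numbered 0, but 1 within 5000 bp, 2 in either replicate, and 0 to 2 leaving out a replicate. Members with an RNA Pol II peak numbered 3, 5 within 5000 bp and 3 to 4 leaving out a replicate, and members with an untreated ETS1 peak numbered 4, but 2 (FGF18 and NRCAM) with a −log10 q of at least 5. Low counts limit BCL11B, ALOXE3 and FGF18, and 2 lists a condition limit every peak comparison.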
